A study of Mus musculus with 18 samples.

Results

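The 10 genes described here belong to the ERM linker system, which ties the plasma membrane to the cortical actin network. They are the 3 ERM proteins Ezr (ezrin), Rdx (radixin) and Msn (moesin), the 4 kinases Stk10, Slk, Rock1 and Rock2, and the 3 membrane partners Cd44, Spn and Selplg. They were picked by gene symbol from the 21254 genes of the count table, with earlier results of these data known, and all 10 were among the 15811 genes that passed the filter on low counts.

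RNA was sequenced from macrophages sorted from mouse lung 24 h after the mice inhaled nebulized lipopolysaccharide (LPS) of Pseudomonas aeruginosa. The nebulizer was run for 15 min with 12.5 mg LPS in 5 ml of buffer, and the dose inhaled is not given in the sources used here. The study compared mice that lack ezrin in monocytes and macrophages with controls, to learn what ezrin does as recruited monocytes turn into interstitial macrophages. Ezr-KOm mice carried floxed Ezr alleles (Ez fl/fl) and a Cre driven by Cx3cr1, and the WT mice carried the same Cx3cr1 Cre with unfloxed Ezr. All were adult C57BL/6 mice, and both sexes were used in the study. Cre acts only where Cx3cr1 is or was active, so a sorted population can keep cells with an intact Ezr, and counts over the whole gene also include transcripts of the excised allele. Every group had inhaled LPS, so none shows the untreated lung. Monocyte-derived macrophages (moM) were sorted as CD45+ CD11b+ cells positive for Ly6C and negative for MHC-II, transitional interstitial macrophages (trIM) as positive for both, and mature interstitial macrophages (matIM) as MHC-II positive and Ly6C negative. With 3 populations and 2 genotypes there were 6 groups, of 3 libraries each. The libraries came from 3 mice per genotype, and which libraries of different populations share a mouse is not given in the sources used here.

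Library totals ran from 16512783 to 48460995 counts, and no pair of replicates agreed within sampling noise. The MHC class II list followed the gates, with summed levels of 3714 to 6678 CPM (counts scaled to library size) in moM libraries and 25996 CPM or more in the other populations. Dendritic cell marker sums differed between the populations too. The 8 genes of that list summed to 83.3 to 124 CPM in WT moM, 308 to 555 CPM in WT trIM and 5502 to 7597 CPM in WT matIM. None of the 8 was at 0. The 9 macrophage markers, all detected, summed to 5479 to 7036 CPM in WT moM and 3976 to 4728 CPM in WT matIM. They did not share a direction: 4 of the 9 were higher and 3 lower in matIM than in moM in WT. In Ezr-KOm 4 were higher and 4 lower. The 5 classical monocyte markers summed to 3572 to 3817 CPM in WT moM and 1182 to 1325 CPM in WT matIM. The sum of the 5 epithelial markers was highest in trIM, at 1131 to 2079 CPM in WT against 88.3 to 133 CPM in WT moM and 385 to 389 CPM in WT matIM. Most of it was Sftpc, and 2 of the 5 were lower in matIM than in trIM in WT while 4 of the 5 were higher in matIM than in moM. The 5 endothelial markers summed to 233 to 378 CPM in WT trIM against 77.4 to 105 CPM in WT moM and 66.6 to 89.1 CPM in WT matIM. The sum of the 5 alveolar macrophage markers was 5230 to 6561 CPM in WT moM against 449.5 to 553 CPM in WT matIM, but it was carried by Chil3, at a mean of 5905 CPM in WT moM and 338 CPM in WT matIM, whereas 3 of the 5 were higher in matIM than in moM and 1 was lower. The 5 B cell markers summed to 8.77 to 13.2 CPM in WT moM and 147 to 219.8 CPM in WT matIM, and in Ezr-KOm moM 1 of them was at 0. The part of these cells in the differences between populations below was not tested, and 0 marker genes passed the edgeR test between the genotypes. The summed fibroblast markers were nevertheless apart between genotypes, at 12.7 to 17.6 CPM in WT and 26.4 to 30.5 CPM in Ezr-KOm in moM. In matIM they were at 8.38 to 14.8 CPM and 18.5 to 18.8 CPM. The epithelial markers were apart in matIM, at 385 to 389 CPM in WT and 257 to 319.9 CPM in Ezr-KOm. The macrophage markers were narrowly apart in moM, at 5479 to 7036 CPM in WT and 7054 to 7185 CPM in Ezr-KOm. The part of these cells in the genotype differences below was not tested.

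ERM proteins bind the cytoplasmic tails of membrane proteins with one end and actin filaments with the other. They rest in a folded state, and phosphorylation of a conserved threonine near the end of the protein, together with binding to the membrane lipid PIP2, holds them open and active. In leukocytes, moesin is known as the main ERM protein, STK10 (also called LOK) and SLK as the main kinases of that threonine, and CD44, CD43 (Spn) and PSGL-1 (Selplg) as adhesion molecules that the linkers tether in microvilli and uropods.

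The codons around that threonine are shown because they are the site on which the kinases act, and because they show how far the 3 genes can be told apart by sequence. The lines run 5′ to 3′ on the coding strand, from Gencode transcripts on GRCm39, with the threonine codon in capitals.
Ezr, codon 567, chr17:7006735-7006794, minus strand, exon 13 of 13: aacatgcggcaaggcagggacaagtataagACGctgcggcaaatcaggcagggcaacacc
Rdx, codon 564, chr9:51997687-51997746, plus strand, exon 14 of 15: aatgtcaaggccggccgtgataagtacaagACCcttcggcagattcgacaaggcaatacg
Msn, codon 558, chrX:95210148-95210207, plus strand, exon 13 of 13: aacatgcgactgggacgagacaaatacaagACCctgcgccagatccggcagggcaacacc
Over these 60 bases, Ezr differed from Msn at 12 and from Rdx at 21, and Rdx differed from Msn at 20. Over their aligned coding bases, Ezr and Msn were 73.82% identical, with a longest identical run of 32 bases, and Ezr and Rdx were 70.03% identical, with a longest run of 15 bases.

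The start of each partner's cytoplasmic tail is shown because ERM proteins are known to dock on basic residues close to the membrane. Each line gives the first 15 codons from the first basic codon after the most hydrophobic stretch, and capitals mark the codons of lysine and arginine.
Cd44, chr2:102644646-102652560, minus strand, across the intron between exons 18 and 19 of 19: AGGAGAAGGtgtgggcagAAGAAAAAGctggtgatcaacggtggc
Spn, chr7:126735648-126735692, minus strand, exon 2 of 2: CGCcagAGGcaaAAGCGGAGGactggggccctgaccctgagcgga
Selplg, chr5:113957210-113957254, minus strand, exon 2 of 2: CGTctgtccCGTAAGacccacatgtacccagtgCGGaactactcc
Basic codons made up 6 of the 15 in Cd44, 5 in Spn and 4 in Selplg.

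Among the ERM proteins, moesin gave most of the transcripts in every library. In WT moM the 3 libraries held 2548, 2627 and 2488 CPM of Msn, in WT trIM 2229, 2144 and 2450.3 CPM, and in WT matIM 2318, 2308 and 2493 CPM. The 3 populations thus stood close together, with trIM and matIM slightly below moM. Rdx was the rarest, at 67.2, 67.9 and 73.3 CPM in WT moM, and no Rdx library of any group left the range of 61.2 to 93.7 CPM.

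Levels of different genes can be compared only per length, so each CPM value was also divided by the kilobases of the gene's merged exons (RPKM). On that scale Msn made up 81.6% ± 0.997 (SD, n = 3) of the summed level of Msn, Ezr and Rdx in WT moM, 78.2% ± 2.27 in WT trIM and 76.9% ± 2.15 in WT matIM. Ezr made up 16.98% ± 1.07 in WT moM, 20.2% ± 2.52 in WT trIM and 21.5% ± 2.29 in WT matIM. In Ezr-KOm the Ezr share was 7.93% ± 1.72 in moM, 7.56% ± 2.67 in trIM and 5.46% ± 1.39 in matIM. No Ezr-KOm library reached the Ezr share of any WT library, and the rest of the pool was almost all Msn, as the bars of ERM transcript make-up show.

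**Figure D1:**
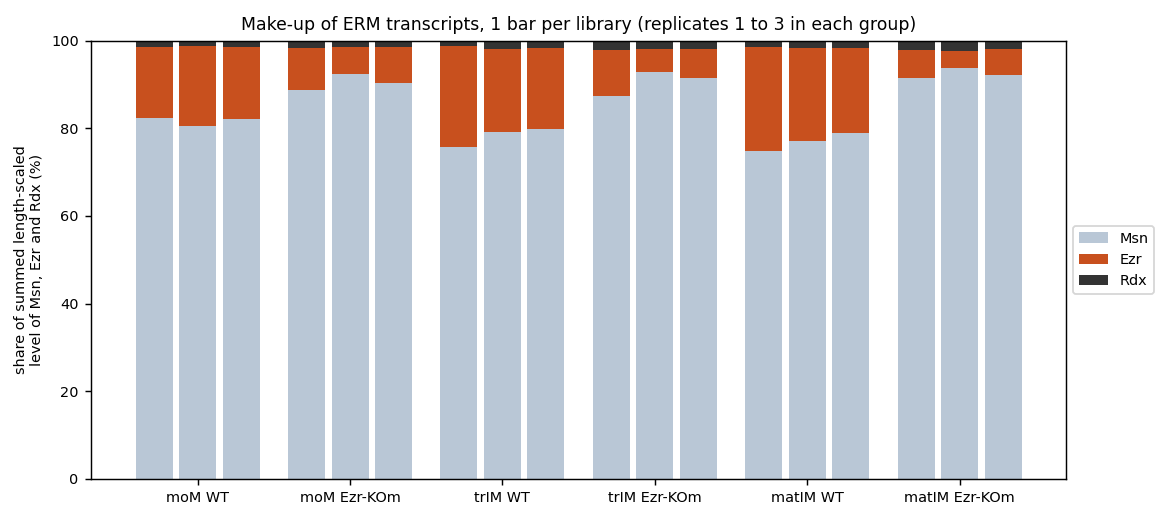
Share of Msn, Ezr and Rdx in their summed length-scaled level (RPKM, in %), 1 bar per library with replicates 1 to 3 from left to right in each group. Msn fills most of every bar, and the Ezr part falls from a mean of 21.5% in WT matIM to 5.46% in Ezr-KOm matIM.

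The targeted gene was measured first, as a check of the labels. In moM, Ezr stood at 503, 593 and 497 CPM in WT and at 282, 160.0 and 252 CPM in Ezr-KOm. In trIM it stood at 679, 515 and 565 CPM in WT and at 234, 126 and 213 CPM in Ezr-KOm, and in matIM at 741, 632 and 611 CPM against 167, 93.8 and 144 CPM. All Ezr-KOm libraries lay below all WT libraries of their population, and replicate 2 was the lowest Ezr-KOm library in each.

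On the log2 scale Ezr was lower by -2.29 (SE 0.25, edgeR quasi-likelihood test, Benjamini-Hochberg adjusted p = 7.73e-05) in matIM and by -1.62 (SE 0.24, edgeR adjusted p = 0.00365) in trIM. In moM the difference was -1.20 (SE 0.24), a 2.3-fold lower level, with an edgeR adjusted p of 0.0549, and in the fit that blocks on replicate number it was -1.26 with an adjusted p of 0.00194 (0.266% of all genes passed in that fit). Of all genes tested, 0.171% passed an adjusted p of 0.05 in moM, 0.164% in trIM and 0.152% in matIM. Ezr in trIM had an adjusted p of 0.0508 without WT trIM replicate 1 and of 0.0709 with each population fitted alone. In sorted bulk cells, fewer cells with the transcript and less of it per cell cannot be told apart.

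The drop of Ezr was not shown to differ between populations. The genotype difference in matIM was more negative than that in moM by -1.10 on the log2 scale (SE 0.34, edgeR, unadjusted p = 0.00455, adjusted p = 1), and that in trIM differed from that in moM by -0.42 (SE 0.34, edgeR adjusted p = 1). By edgeR, 0 of all genes tested passed the adjusted threshold for any of these differences of differences, while an unadjusted p under 0.05 was reached by 1.47% of genes for trIM against moM, 1.7% for matIM against moM and 1.16% for matIM against trIM.

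None of the other 9 genes passed the test between Ezr-KOm and WT in any population. This held for the other ERM proteins, which share Ezr's partners. Msn was at 2613, 2401 and 2853 CPM in Ezr-KOm moM, 1943, 2159 and 2902 CPM in Ezr-KOm trIM and 2379, 2275 and 2181 CPM in Ezr-KOm matIM, and these overlapped the WT libraries everywhere. Its log2 difference was 0.04 (95% interval -0.25 to 0.33) in moM, 0.04 (-0.25 to 0.33) in trIM and -0.06 (-0.35 to 0.23) in matIM. Rdx was at 78.5, 64.2 and 77.0 CPM in Ezr-KOm moM, 71.4, 66.7 and 93.5 CPM in Ezr-KOm trIM and 88.8, 93.7 and 68.3 CPM in Ezr-KOm matIM. Its differences were 0.08 (-0.27 to 0.42), 0.06 (-0.28 to 0.40) and 0.12 (-0.22 to 0.46). A rise of either gene by more than 0.46 on the log2 scale therefore lay outside each 95% interval.

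The kinases did not pass the test either, with 0 of 4 called in each population by edgeR and by DESeq2. At an unadjusted p of 0.05 it was also 0 of 4, where 3.74% of all genes passed in moM, 3.24% in trIM and 3.84% in matIM, so a count of 0 among 4 genes is near the background. The differences closest to a call were those of Rock1, a kinase that drives myosin contraction and can phosphorylate ERM proteins. In matIM Rock1 stood at 86.9, 98.0 and 92.2 CPM in WT and at 104, 113 and 128 CPM in Ezr-KOm, so the groups did not overlap. Rock1 was the only one of the 9 genes for which this held in matIM, 10.1% of all genes tested had groups that did not overlap there, and among the 9 genes there was none in moM (8.52% of all genes) or trIM (5.81%).

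The Rock1 difference was 0.32 on the log2 scale (95% interval -0.08 to 0.72, edgeR unadjusted p = 0.111, adjusted p = 1) in matIM, 0.30 (-0.10 to 0.70) in trIM and 0.21 (-0.18 to 0.61) in moM. All 3 values were positive, and each interval included 0. Its relative Rock2 had differences of 0.05 (-0.44 to 0.55) in moM, 0.23 (-0.26 to 0.73) in trIM and 0.24 (-0.26 to 0.73) in matIM. Slk, a kinase of the ERM threonine, had differences of 0.05 (-0.35 to 0.44), 0.14 (-0.25 to 0.53) and 0.12 (-0.27 to 0.52). Stk10, the other main kinase of that site, had differences of -0.01 (-0.58 to 0.55), -0.06 (-0.62 to 0.51) and -0.16 (-0.73 to 0.40), so its intervals were wider.

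The membrane partners likewise overlapped between the genotypes in every population. The partner difference with the smallest unadjusted p was that of Selplg, a ligand of the selectins, in moM. It stood there at 483, 627 and 611 CPM in WT and at 466, 436 and 541 CPM in Ezr-KOm, a difference of -0.25 (95% interval -0.56 to 0.05, edgeR unadjusted p = 0.101, adjusted p = 1). Cd44, the receptor of hyaluronan, had its largest difference in matIM, at -0.29 (-0.74 to 0.16), with 742, 625 and 594 CPM in WT and 660.1, 521 and 426 CPM in Ezr-KOm. Spn, a large sialylated mucin of leukocytes, had the fewest counts of the 10 genes and had the widest intervals, such as -0.56 to 0.86 around 0.15 in moM.

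**Figure D2:**
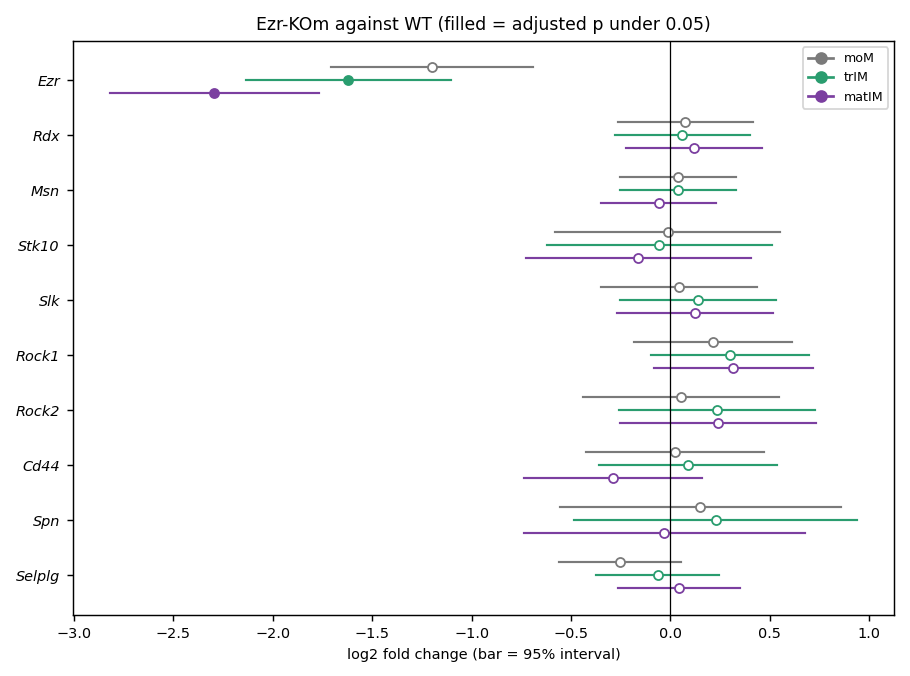
Log2 fold change of each gene in Ezr-KOm against WT (x axis) in moM, trIM and matIM, with bars for the 95% interval and filled points for an adjusted p under 0.05. Ezr lies between -1.20 and -2.29, and the other 9 genes lie between -0.29 and 0.32 with intervals that include 0.

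Between the populations the 4 kinases shared signs, and most of the other members had the same sign. Of the 9 genes other than Ezr, 8 had negative differences in trIM against moM in each genotype, and 7 in matIM against moM. The 3 membrane partners were all negative in trIM, with a median of -0.63 in WT and -0.49 in Ezr-KOm. Against moM of the same genotype, all 4 kinases had negative log2 differences in trIM and in matIM, in WT and in Ezr-KOm, but only Slk passed the edgeR test. The median over the 4 kinases was -0.53 in WT trIM, -0.42 in WT matIM, -0.51 in Ezr-KOm trIM and -0.37 in Ezr-KOm matIM, while the median over all genes tested was 0.01 in each of these comparisons. The comparisons share their moM libraries, so they are not independent of each other. Within groups the 4 kinases also correlated with each other, at r from 0.17 to 0.78, so their signs are not independent either.

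Slk stood at 296, 249 and 262 CPM in WT moM, 149.7, 124 and 193 CPM in WT trIM and 156, 159.7 and 217 CPM in WT matIM. In Ezr-KOm it stood at 288, 259.6 and 286 CPM in moM, 160.0, 134 and 219 CPM in trIM and 173, 216 and 191 CPM in matIM. Every moM library was above every trIM and matIM library. Slk was lower in trIM by -0.79 (SE 0.19, edgeR adjusted p = 0.0053) in WT and by -0.70 (SE 0.19, edgeR adjusted p = 0.0163) in Ezr-KOm.

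In matIM Slk was lower than in moM by -0.60 (SE 0.19, edgeR adjusted p = 0.0247) in WT, and the Ezr-KOm difference was -0.52 (SE 0.19, edgeR adjusted p = 0.0523), which passed in 17 of 27 alternatives. The WT call in matIM was lost with library totals only (adjusted p = 0.082) and without WT moM replicate 1 (0.0544), WT matIM replicate 1 (0.0655) or WT matIM replicate 2 (0.0682). The Ezr-KOm call of Slk in trIM was lost with library totals only (0.0502) and without Ezr-KOm moM replicate 3 (0.0501) or Ezr-KOm trIM replicate 2 (0.0958).

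Of the 10 genes, 2 passed in trIM against moM in WT (21.6% of all genes tested) and 2 in Ezr-KOm (14.3%). For matIM against moM it was 3 of 10 in WT (24.8%) and 3 of 10 in Ezr-KOm (23.3%), and for matIM against trIM 1 of 10 in WT (18.5%) and 1 of 10 in Ezr-KOm (18.2%). In this fit, which has no block, these shares are near or below those of all genes. With the replicate number as a block the counts were higher, except in matIM against trIM in WT. They are given further below with their shares of all genes. Groups of libraries did not overlap for 3 of the 10 genes in trIM against moM in WT (36% of all genes), 4 in matIM against moM in WT (41.5%) and 1 in matIM against trIM in WT (31.5%). In Ezr-KOm the counts were 3 (28.7%), 5 (39.9%) and 2 (31.2%).

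Stk10 stood at 199.5, 311 and 331 CPM in WT moM, 139.8, 157 and 247 CPM in WT trIM and 162, 192 and 239 CPM in WT matIM. In Ezr-KOm it stood at 217, 301 and 315 CPM in moM, 116, 184 and 223 CPM in trIM and 128, 216 and 187 CPM in matIM. Replicate 1 was the lowest Stk10 library of each group, and this spread between replicates was as large as the gap between populations. The difference of trIM from moM was -0.63 (SE 0.27, edgeR adjusted p = 0.107) in WT and -0.67 (SE 0.27, edgeR adjusted p = 0.111) in Ezr-KOm. With the replicate number as a block Stk10 was lower in trIM by -0.63 (SE 0.14, edgeR adjusted p = 0.00212) in WT and by -0.70 (SE 0.14, edgeR adjusted p = 0.00116) in Ezr-KOm.

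The block changed further calls. In trIM against moM in WT, same-numbered libraries deviated together, and with the number as a block 6 of the 10 genes passed (28.9% of all genes tested), against 7 (30%) with the mouse taken from genotype and number. The added ones were Stk10, Rock1 at -0.45 (edgeR adjusted p = 0.0378), Cd44 at -0.56 (0.00662) and Spn at -0.68 (0.0296), and by mouse also Rock2 at -0.47 (0.0444). In trIM against moM in Ezr-KOm, 4 passed (20.1%), Stk10 and Cd44 at -0.45 (0.0293) being added, and 5 (21.5%) by mouse with Spn at -0.57 (0.045).

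Rock1 and Rock2 were lower in abundance per length than the ERM threonine kinases in WT moM, at 6.13 ± 0.960 (SD, n = 3) and 4.62 ± 0.568 RPKM against 44.5 ± 11.2 RPKM for Stk10 and 27.8 ± 2.49 RPKM for Slk. The merged exons of Rock1 cover 18934 bases against 7104 in its longest transcript, and those of Rock2 15906 against 8173, so their RPKM would be higher if scaled to 1 transcript. In CPM, Rock1 stood at 130, 95.5 and 122 in WT moM, 90.6, 61.3 and 106 in WT trIM and 86.9, 98.0 and 92.2 in WT matIM. Rock2 stood at 76.6, 63.3 and 80.6 CPM in WT moM, 50.8, 39.6 and 72.3 CPM in WT trIM and 45.8, 63.7 and 69.4 CPM in WT matIM. The libraries of both genes overlapped between populations, with trIM against moM at -0.43 (SE 0.19, edgeR adjusted p = 0.116) for Rock1 and -0.44 (SE 0.24, edgeR adjusted p = 0.204) for Rock2 in WT.

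**Figure D3:**
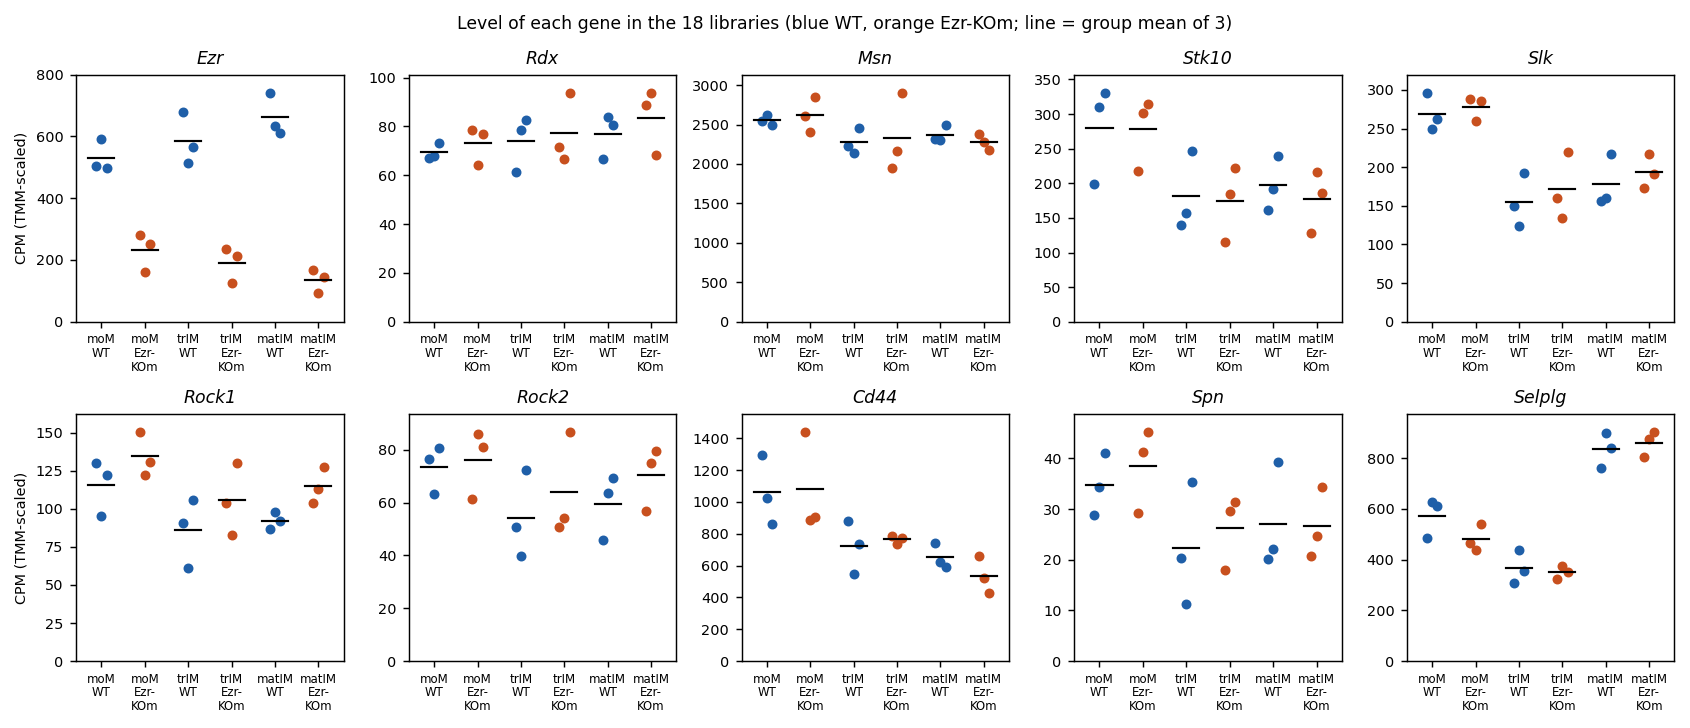
Level of each of the 10 genes in the 18 libraries, in CPM on linear axes that start at 0, with WT in blue, Ezr-KOm in orange and a line at the mean of the 3 libraries of a group. Ezr separates by genotype, the means of Slk and Cd44 are highest in moM, and Selplg is highest in matIM, at 763 to 903 CPM.

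The partner Selplg was lower in trIM than in moM and higher in matIM than in either, and its difference between matIM and trIM was the largest of the 10 genes in that comparison. It stood at 483, 627 and 611 CPM in WT moM, 306, 436 and 356 CPM in WT trIM and 763, 898 and 842 CPM in WT matIM. In Ezr-KOm it stood at 466, 436 and 541 CPM in moM, 324, 373 and 353 CPM in trIM and 806, 874 and 903 CPM in matIM. The order was therefore trIM, then moM, then matIM in both genotypes, with no overlap between the groups of one genotype.

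Selplg was lower in trIM than in moM by -0.65 (SE 0.15, edgeR adjusted p = 0.00378) in WT and by -0.46 (SE 0.15, edgeR adjusted p = 0.0424) in Ezr-KOm. It was higher in matIM than in trIM by 1.19 (SE 0.15, edgeR adjusted p = 1.2e-05) in WT and by 1.30 (SE 0.15, edgeR adjusted p = 5.31e-06) in Ezr-KOm. Against moM, matIM was higher by 0.54 (SE 0.15, edgeR adjusted p = 0.0104) in WT and by 0.84 (SE 0.15, edgeR adjusted p = 0.000325) in Ezr-KOm.

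The rise of Selplg from trIM to matIM passed under each alternative run. Its WT rise over moM had an adjusted p of 0.0864 without WT moM replicate 1 and of 0.0673 without WT matIM replicate 2. Its fall in Ezr-KOm trIM was lost in 18 of 27 alternatives, with adjusted p up to 0.23 without Ezr-KOm moM replicate 3. The dendritic cell list rose from moM to matIM together with Selplg, with 7 of 8 markers higher in both genotypes. From moM to trIM, where Selplg fell, 4 of the 8 markers were higher and 1 lower in WT. In Ezr-KOm 5 were higher and 1 lower in that step. The part of dendritic cells in the Selplg values was not tested.

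By group mean Cd44 was highest in moM and lowest in matIM in both genotypes. The part of dendritic and other cells in this order was not tested. It stood at 1298, 1022 and 862 CPM in WT moM, 878, 548 and 734 CPM in WT trIM and 742, 625 and 594 CPM in WT matIM. In Ezr-KOm it stood at 1438, 889 and 908 CPM in moM, 786, 738 and 774 CPM in trIM and 660.1, 521 and 426 CPM in matIM. Each matIM library was below each moM library of its genotype, and replicate 1 was the highest in each group.

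Cd44 was lower in matIM than in moM by -0.70 (SE 0.21, edgeR adjusted p = 0.0224) in WT and by -1.01 (SE 0.22, edgeR adjusted p = 0.00182), a 2.0-fold lower level, in Ezr-KOm. The WT call was lost without WT moM replicate 1 (adjusted p = 0.107), WT matIM replicate 2 (0.0707) or WT matIM replicate 3 (0.0778). Neither step between passed in this fit. In trIM against moM the difference was -0.56 (SE 0.21, edgeR adjusted p = 0.0713) in WT and -0.49 (SE 0.21, edgeR adjusted p = 0.142) in Ezr-KOm. From trIM to matIM the difference was -0.14 (SE 0.21, edgeR adjusted p = 0.745) in WT and -0.52 (SE 0.21, edgeR adjusted p = 0.113) in Ezr-KOm. With the replicate block the Ezr-KOm difference from trIM to matIM was -0.54 (edgeR adjusted p = 0.0083). In that comparison 2 of the 10 genes then passed (23.4% of all genes), or 3 by mouse (24.4%) with Ezr at -0.49 (0.00386). Whether the Cd44 fall from moM to matIM was larger in Ezr-KOm was tested as a difference of differences, which was -0.31 (SE 0.30, edgeR adjusted p = 1).

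Spn was measured at 506 to 1072 counts in moM libraries and at 178 to 1480 counts in trIM libraries. In WT trIM it stood at 20.4, 11.3 and 35.4 CPM, a span of more than the distance between any pair of group means. Its group means were 34.7 ± 6.12 CPM in WT moM, 22.4 ± 12.2 CPM in WT trIM and 27.1 ± 10.5 CPM in WT matIM (SD, n = 3). The differences from moM were -0.63 (SE 0.34, edgeR adjusted p = 0.203) in trIM and -0.36 (SE 0.34, edgeR adjusted p = 0.496) in matIM in WT.

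Among the ERM proteins themselves, neither Rdx nor Msn passed a test between populations. Msn differed by -0.17 (95% interval -0.46 to 0.12) in trIM and by -0.11 (-0.40 to 0.18) in matIM against moM in WT. Ezr passed only within Ezr-KOm, where matIM was lower than moM by -0.78 (SE 0.24, edgeR adjusted p = 0.0239), with libraries that overlapped. That call was lost with Ezr-KOm libraries fitted alone (adjusted p = 0.0668) and without Ezr-KOm moM replicate 1 (0.133), moM replicate 3 (0.083), matIM replicate 2 (0.127) or matIM replicate 3 (0.0526). In WT the Ezr difference of matIM from moM was 0.32 (SE 0.24, edgeR adjusted p = 0.38). The same sign without a call held in 26 of 27 alternatives. Each WT matIM library (611 to 741 CPM) was above each WT moM library (497 to 593 CPM). Such a separation held for 41.5% of all genes in that comparison.

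**Figure D4:**
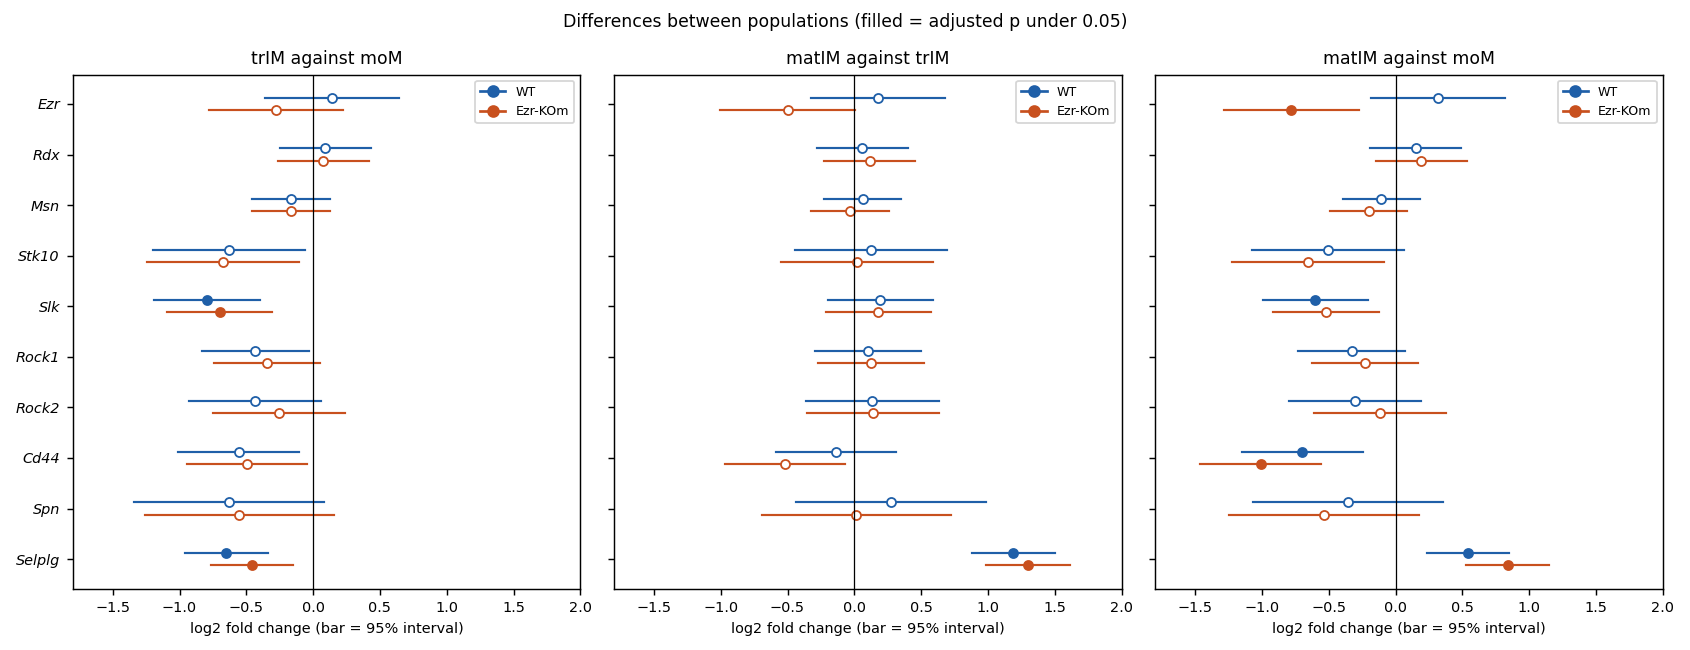
Log2 fold changes of the 10 genes between populations (x axes), for trIM against moM, matIM against trIM and matIM against moM, in WT (blue) and Ezr-KOm (orange), with 95% intervals and filled points for an adjusted p under 0.05. Selplg lies left of 0 in the first panel and right of 0 in the others, reaching 1.30, and the 4 kinases lie left of 0 against moM.

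Within the groups, several members deviated together from one replicate to the next. After the mean of its own group was taken from each library, the correlation over 18 libraries was 0.81 for Rock2 and Spn, 0.78 for Slk and Rock1, 0.77 for Stk10 and Spn and 0.77 for Slk and Rock2. Cd44 and Selplg ran against each other, with r = -0.70. These are descriptions over libraries that share replicate numbers and carry no p.

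For some of the members the deviations followed the replicate number. Ezr, Rdx, Msn, Slk and Rock1 had no replicate number on one side of the mean in 6 of 6 groups. The share of all genes with such a pattern was not counted. Stk10 was below its group mean in replicate 1 in 6 of 6 groups, by 0.27 to 0.54 on the log2 scale, and above it in replicate 3 in 6 of 6. Cd44 was above its mean in replicate 1 in 6 of 6 groups and below it in replicate 2 in 6 of 6. Spn and Rock2 were above their means in replicate 3 in 6 of 6 groups, by 0.25 to 0.81 and by 0.11 to 0.48. Selplg was below its mean in replicate 1 in 6 of 6. Whether the replicate number marks a mouse is not given in the sources used here.

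**Figure D5:**
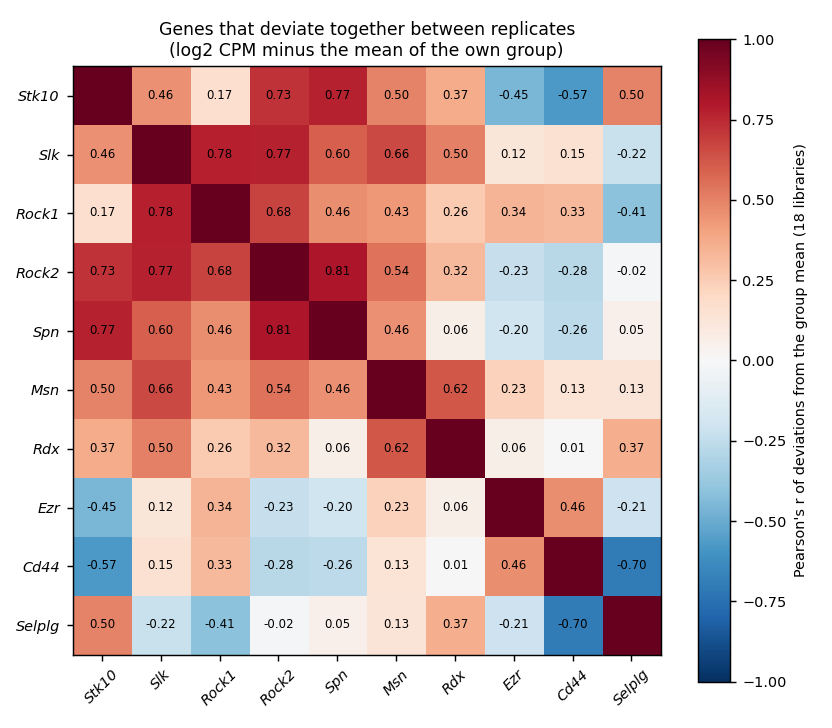
Pearson's r, over 18 libraries, between the deviations of each pair of genes from their group means (log2 CPM), from -1 in blue to 1 in red. The kinases and Spn form a block of positive values from 0.17 to 0.81, and Cd44 against Selplg is at -0.70.

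Each member was set beside the tested genes whose log2 CPM ran most like its own over the 18 libraries, by Pearson's r. Group means were not removed here, so differences between genotypes and populations enter r. For Ezr these genes were Atp6v0c (r = 0.95), a subunit of the vacuolar proton pump that also lies on chromosome 17, and 4930481A15Rik (0.93) on chromosome 19. For the kinases they were Rbsn (0.95) and Ip6k1 (0.94) for Stk10, Vav3 (0.96) and Vps13b (0.95) for Slk, Gm15361 (0.93) and Lnpep (0.93) for Rock1, and Zfp292 (0.94) and Kdm5a (0.94) for Rock2. For the partners they were Tmx4 (0.94) and Litaf (0.93) for Cd44, Zxdc (0.93) and Zer1 (0.91) for Spn, and Lsp1 (0.99) and Vrk1 (0.97) for Selplg. Msn had Alpk1 (0.85) and Secisbp2l (0.85), and Rdx had Ddx42 (0.80) and Fyttd1 (0.78), the lowest values of the 10 genes.

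The wider ERM list held 49 tested genes, among them other kinases, the phosphatase of the threonine, PIP2 synthesis, adaptors, further membrane partners and cortical actin. By edgeR 0 of the 49 passed between Ezr-KOm and WT in each population, where 0.152% to 0.171% of all genes passed. Against moM, 18 of 49 passed in WT trIM (10 higher, 8 lower; 21.6% of all genes) and 15 of 49 in WT matIM (6 higher, 9 lower; 24.8%). In Ezr-KOm it was 14 of 49 in trIM (8 higher, 6 lower; 14.3%) and 14 of 49 in matIM (4 higher, 10 lower; 23.3%). The median log2 difference over the list was 0.04 in WT trIM and -0.17 in WT matIM, against 0.01 in both over all genes.

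In matIM against moM, genes of this list that passed in both genotypes included further partners and kinases. Mcam fell by -1.42 in WT and -1.57 in Ezr-KOm and Icam2 by -1.35 and -1.49, and both are known from endothelium, of whose 5 markers 3 were lower in matIM in either genotype (the part of endothelial cells was not tested). Vcam1 rose by 0.88 and 0.86.

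Of the 10 kinases of the wider list, 8 had negative differences in matIM against moM in each genotype. By edgeR 2 passed as lower and 1 as higher in WT (24.8% of all genes passed). In Ezr-KOm 3 passed as lower and 1 as higher (23.3%). Stk26, of the same kinase superfamily as Stk10 and Slk, fell by -1.61 in WT and -1.17 in Ezr-KOm, and Prkcb, a protein kinase C, fell by -0.92 and -0.73. Prkca, another protein kinase C at a mean of 1.05 CPM in WT moM, rose by 1.19 and 1.42. The largest edgeR adjusted p among these named genes in either genotype was that of Prkca in WT (0.046).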

How the data were processed

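The authors aligned paired reads from SMART-Seq v4 libraries to GRCm39 with STAR 2.7.9a and a Gencode annotation and counted reads per gene (GeneCounts). The deposited values were these raw counts, and which strand column was kept is not given in the sources used here. The kit does not mark strand, so reads of Ezr and the antisense neighbour Sytl3 (10 to 44 counts) cannot be told apart where they overlap.

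Genes were kept by filterByExpr (smallest count 10), scaled by TMM and fitted in 1 model of 6 groups over 18 libraries with edgeR 4.0.16 (limma 3.58.1, R 4.3.3). Contrasts were tested with the quasi-likelihood F-test, two-sided, with Benjamini-Hochberg adjustment over 15811 genes and a threshold of 0.05. CPM were TMM-scaled. Lengths and coding sequence came from Gencode vM39 on GRCm39. Pearson's r used log2 CPM with a prior count of 2. The script was tested on simulated data.

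The members, the wider list and the markers were chosen with earlier results of these data known. From the wider list the text names the 10 genes called in matIM against moM in both genotypes in order of the smaller of their 2 changes, of which 4 are not reported here, and for each member the 2 genes of highest r. Of 50 listed genes, 1 (Pdzk1) was not analysed here. One library's title lacks its replicate number, which was read from its description.

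Replicate numbers were taken to pair libraries where each same-numbered pair's deviations correlated above 0.1. This held between genotypes (r 0.102 to 0.316, other pairs at most 0.0508) and for trIM against moM and matIM against trIM. The cut was missed for matIM against moM, where the lowest same-numbered pair was at 0.0905. Different-numbered pairs reached at most 0.0316 there, so missing the cut does not show that the numbers are unpaired. Alternatives were DESeq2 1.42.0, other scalings and filters, robust estimation, groups fitted apart, blocks and each library left out in turn.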

Additional observations from a re-analysis of the deposited data

How the results depend on the processing

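Counts of members passing changed as follows. For Ezr-KOm against WT in moM, 1 of 10 (Ezr) in place of 0 passed with DESeq2, library totals, no filter, robust estimation or the replicate block, and 0 to 1 with a library left out (1 without Ezr-KOm trIM replicate 2 or Ezr-KOm matIM replicate 2). For Ezr-KOm against WT in trIM, 0 passed with populations fitted alone, and 0 to 1 with a library left out (0 without WT trIM replicate 1). For trIM against moM in WT, 6 passed with the replicate block and 7 by mouse, and 2 to 6 with a library left out (6 without WT trIM replicate 3). For trIM against moM in Ezr-KOm, 1 passed with upper-quartile scaling, no filter or at least 10 counts in every library, 0 with library totals, 4 with the block, 5 by mouse, and 0 to 2 with a library left out (0 without Ezr-KOm moM replicate 3 or Ezr-KOm trIM replicate 2). For matIM against moM the numbers missed the cut for pairing, which does not show that they are unpaired. There 4 passed in WT with the replicate block (30.9% of all genes) and 5 by mouse (31.6%). With a library left out it was 0 to 3 in WT (0 without WT moM replicate 1 or WT matIM replicate 2). In Ezr-KOm matIM against moM, 5 passed with the replicate block (29.3%) and 6 by mouse (30.3%). With a library left out it was 2 to 5 (5 without WT trIM replicate 3 or Ezr-KOm trIM replicate 1). For matIM against trIM in Ezr-KOm, 2 passed with the block and 3 by mouse, and 1 to 2 with a library left out (2 without Ezr-KOm trIM replicate 2 or Ezr-KOm matIM replicate 1). The causes were not tested, apart from fewer libraries or genes where the alternative removes them. The block moved no other count of the 10 genes that passed.

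Differences near 0 changed sign. Stk10 in Ezr-KOm against WT in moM was 0.0030 with the block. In Ezr-KOm, Rock2 in matIM against moM was 0.010 and Msn in matIM against trIM 0.0031 with library totals, Stk10 in matIM against trIM was -0.011 with upper-quartile scaling and -0.0018 without a filter, and Spn was -0.013 and -0.0050. With a library left out, sign changes in Ezr-KOm against WT came, in moM, for Msn (-0.030 to 0.10), Stk10 (-0.21 to 0.12), Slk (-0.00049 to 0.11), Rock2 (-0.039 to 0.17) and Cd44 (-0.26 to 0.19), in trIM for Rdx (-0.062 to 0.15), Msn (-0.12 to 0.14), Stk10 (-0.24 to 0.22), Slk (-0.038 to 0.31), Rock2 (-0.0088 to 0.48), Cd44 (-0.077 to 0.29), Spn (-0.079 to 0.71) and Selplg (-0.15 to 0.083), and in matIM for Stk10 (-0.33 to 0.026) and Spn (-0.24 to 0.33). In matIM against trIM in WT they came for Rdx (-0.076 to 0.12), Msn (-0.0079 to 0.066), Stk10 (-0.052 to 0.36), Rock1 (-0.12 to 0.23), Rock2 (-0.072 to 0.34), Cd44 (-0.33 to 0.017) and Spn (-0.11 to 0.71), and in Ezr-KOm for Msn (-0.16 to 0.10), Stk10 (-0.21 to 0.18), Rock1 (-0.025 to 0.24), Rock2 (-0.0063 to 0.36) and Spn (-0.23 to 0.13). In trIM against moM in Ezr-KOm it came for Rdx (-0.048 to 0.17). In all, 2927 values kept direction and side of the threshold, 57 gained and 37 lost a call, 74 changed sign and 45 counts moved by over 1.5 times. Library totals moved the median of all genes by 0.125 in matIM against moM in Ezr-KOm. Of the 20 genes nearest in pattern, 6 were shared with Spearman's correlation. Spn, with as few as 178 counts, was measured least precisely.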
